A study of Mus musculus with 6 samples.

Results

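Rab genes encode small GTPases that mark the membranes of the secretory and endocytic pathways. They were examined in dendritic cells of a mouse ovarian tumour with and without XBP1. Members were the rows of the count table whose symbol is Rab, a number and at most 1 letter from a to d. This took 53 of 23225 rows, of which 49 passed the filter on low counts. By known site of action 14 were put in an ER and Golgi group, 21 in an endosomal group, 14 in a secretory group and 4 in none of these. The older symbols Rab1 and Rab6 in the table stand for Rab1a and Rab6a.

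A Rab protein cycles between an inactive form bound to GDP and an active form bound to GTP. Exchange factors load it with GTP, GTPase activating proteins end the active state, and recycling proteins take it off the membrane. In its active form it binds effectors such as tethers and motor adaptors, through which vesicles form, move, dock and fuse. In dendritic cells these steps carry secreted and surface proteins outward and antigen inward to MHC class II compartments. XBP1 is a transcription factor activated when the ER stress sensor IRE1 splices its mRNA, and it is known for genes of the secretory pathway.

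The XBP1-KO group held 3 libraries from C57BL/6 mice with a conditional knockout of XBP1 in cells that carry CD11c. The WT group held 3 libraries from wild-type C57BL/6 mice. Both came from dendritic cells sorted out of ID8-based tumours at day 23, and ID8 is an ovarian cancer line of mice that seeds the peritoneum. Deletion that depends on CD11c reaches other CD11c-positive cells too and leaves cells without CD11c intact. RNA was isolated separately for each library, but the labels do not say that each came from its own animal, so each p-value covers only the spread seen among these samples, which may be technical. In bulk samples of this kind fewer cells of a type and less RNA per cell cannot be told apart.

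Libraries held 26946349 to 32709100 counts. Xbp1 had 32.5, 30.9 and 40.4 CPM in the XBP1-KO libraries and 67.2, 48.7 and 76.8 CPM in the WT libraries. Every XBP1-KO value was below every WT value, but the fold change missed the threshold (edgeR quasi-likelihood test, adjusted p = 0.0545). Counts per gene do not separate the deleted part of Xbp1 from the rest. The dendritic cell markers Itgax (CD11c), Flt3, Zbtb46 and Cd74 were all detected, with 146, 32.5, 7.39 and 69900 CPM on average in XBP1-KO and 103, 35.9, 8.66 and 84380 CPM in WT. Of the 10 dendritic cell markers tested 8 had log2 fold changes below 0 and 2, Itgax among them, above 0, with a median of -0.24 and 0 called by edgeR (2 at an unadjusted p under 0.05). Markers of T and NK cells were higher in XBP1-KO, 13 of 13 by fold change and 5 of them past the threshold. Their summed level was 264 to 404 CPM in XBP1-KO and 159 to 173 CPM in WT. Summed B cell markers were at 345 to 502 CPM in XBP1-KO and 132 to 321 CPM in WT, and neutrophil markers at 235 to 510 CPM in XBP1-KO and 46.2 to 266 CPM in WT. Peritoneal macrophage markers summed to 722 to 1132 CPM in XBP1-KO and 615 to 802 CPM in WT, with 5 of 6 higher in XBP1-KO and 2 of the 6 at an unadjusted p under 0.05. Epithelial and tumour cell markers summed to 111 to 172 CPM in XBP1-KO and 131 to 156 CPM in WT. The part of such cells in the Rab levels was not tested. On the first principal component of all genes (33.5% of the variance), XBP1-KO libraries lay at 29.4, 37.5 and 15.8 and WT libraries at -32.8, 9.56 and -59.5, without overlap. On the second (22.2%), the libraries called XBP1-KO b and WT b lay at 30.1 and 38.3, and the other 4 lay between -45 and -0.993.

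None of the 49 tested Rab members passed the threshold of an adjusted p of 0.05 in XBP1-KO against WT. Rab8b, listed as Rab8B and left out of the members by its spelling alone, did pass it (edgeR adjusted p = 0.0459). The same test called 0.445% of all 15958 genes, which is 71 genes, 46 lower and 25 higher in XBP1-KO. At an unadjusted p under 0.05 there were 6 of 49 Rab genes (12.2%), against 12.9% of all genes. Of these, 5 had lower levels in XBP1-KO (Rab5b, Rab43, Rab38, Rab39 and Rab3d), as did 8.26% of all genes, and Rab28 had a higher level, as did 4.59% of all genes. DESeq2 called 2 Rab members, Rab5b and Rab28, against 3.17% of all genes it tested. The values of the XBP1-KO and WT libraries did not overlap for 12 of 49 Rab genes (24.5%), against 19.2% of all genes. XBP1-KO was below WT in 5 of them (Rab5b, Rab8a, Rab18, Rab33b and Rab6b), beside 10.4% of all genes. It was above WT in 7 (Rab28, Rab23, Rab2a, Rab30, Rab11a, Rab15 and Rab27b), beside 8.8% of all genes. These shares are near the background. Fold changes were below 0 for 18 Rab genes, against 43.9% of all genes, and above 0 for 31, with a median log2 fold change of 0.10 beside 0.06 over all genes. The 95% interval of the fold change lay within 1 log2 unit of 0 for 30 of 49 Rab genes, so a 2-fold difference lay outside it for these genes. That is 61.2% of the Rab genes and 60.8% of all genes.

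The promoters of Rab5b and Rab28 are shown because these genes had the smallest p-values among the members. That of Rab8b is shown because this close relative, listed as Rab8B and left out of the members by its spelling, passed the threshold. Each is the 250 bases before the RefSeq start, 5′ to 3′ on the strand of the gene, in build GRCm38.p6. Capitals mark CCACG on either strand, which ends the ER stress element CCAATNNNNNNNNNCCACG. Rab5b lies at chr10:128696269-128696518, Rab28 at chr5:41708180-41708429 and Rab8b at chr9:66919706-66919955, all on the minus strand.
Rab5b: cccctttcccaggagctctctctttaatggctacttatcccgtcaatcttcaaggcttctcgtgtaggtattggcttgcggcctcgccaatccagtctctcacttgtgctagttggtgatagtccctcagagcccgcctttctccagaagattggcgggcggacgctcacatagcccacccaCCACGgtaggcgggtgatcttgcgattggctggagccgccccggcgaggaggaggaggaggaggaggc
Rab28: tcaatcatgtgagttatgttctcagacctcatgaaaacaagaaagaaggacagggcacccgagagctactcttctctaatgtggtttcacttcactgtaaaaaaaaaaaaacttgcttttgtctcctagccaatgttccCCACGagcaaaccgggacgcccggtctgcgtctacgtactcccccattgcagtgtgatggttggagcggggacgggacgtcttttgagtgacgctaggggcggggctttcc
Rab8b: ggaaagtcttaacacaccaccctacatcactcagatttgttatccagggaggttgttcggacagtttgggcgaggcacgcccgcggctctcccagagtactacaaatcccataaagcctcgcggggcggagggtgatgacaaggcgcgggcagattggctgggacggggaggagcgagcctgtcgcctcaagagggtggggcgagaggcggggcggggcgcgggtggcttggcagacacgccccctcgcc

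CCACG was present 68 bases before the start in Rab5b and 111 bases before the start in Rab28, and was not in this window of Rab8b. A promoter was given for 43 of the 53 Rab genes, with 55 windows in all. CCACG stood in 21 of these windows (38.2%) on either strand, beside 28.3% of the 32851 windows of all genes. TGACGTG, the core of the unfolded protein response element, stood in 0 Rab windows and 1.65% of all windows. The full ER stress element stood in 0 Rab windows and 0.113% of all windows. These are matches of letters and say nothing of binding.

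**Figure D1:**
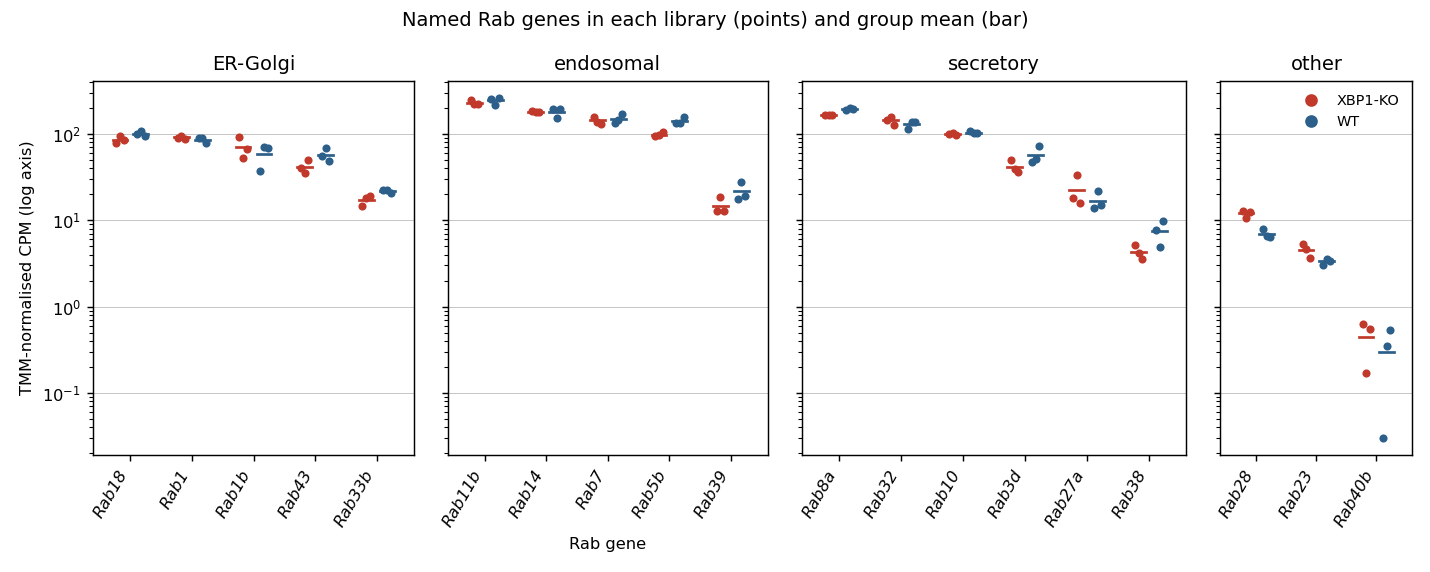
TMM-normalised CPM of the 19 named Rab genes on a log axis, by role group. Points are the 3 XBP1-KO and 3 WT libraries and bars the group means, with a count of 0 drawn at the foot of the axis. XBP1-KO points lie below all WT points for Rab5b and above all WT points for Rab28, while Rab7, Rab14 and Rab1 overlap.

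The ER and Golgi group held 14 genes, all tested, of which 0 were called and 7 had fold changes below 0. Rab1 and Rab1b direct vesicles from the ER to the Golgi. Rab1 had 89.5, 95.9 and 88.3 CPM in XBP1-KO and 89.2, 89.4 and 77.6 CPM in WT. Rab1b had 91.9, 52.0 and 66.8 CPM in XBP1-KO and 37.2, 70.5 and 68.7 CPM in WT. The groups overlapped for both genes, and for Rab1b the library XBP1-KO a was the highest of the 6 and WT a the lowest. The log2 fold change was 0.10 for Rab1 (SE 0.13, adjusted p = 0.782) and 0.26 for Rab1b (SE 0.28, adjusted p = 0.733, edgeR for both). Rab2a, which also acts between the ER and the Golgi, averaged 41.3 CPM in XBP1-KO and 35.6 CPM in WT without overlap (edgeR adjusted p = 0.571).

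Rab43, which takes part in transport between the ER and the Golgi and in cross-presentation by mouse dendritic cells, had 40.1, 35.2 and 49.5 CPM in XBP1-KO and 55.4, 68.2 and 49.2 CPM in WT. Library XBP1-KO c lay just above WT c, so the groups overlapped. Its log2 fold change was -0.47 (SE 0.17, adjusted p = 0.251). In GENCODE vM21, 90.4% of the 50-base windows of the longest Rab43 transcript also occur in a transcript annotated as another gene, so how its counts were assigned is uncertain.

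Rab18, found on the ER and on lipid droplets, had 77.8, 93.7 and 85.3 CPM in XBP1-KO and 100.2, 109 and 93.9 CPM in WT. XBP1-KO b and WT c were within 1 CPM of each other, and no XBP1-KO value reached a WT value. Its log2 fold change was -0.24 (SE 0.13, adjusted p = 0.470). Rab33b, a Golgi Rab that binds the autophagy protein Atg16l1, had 14.8, 17.98 and 19.2 CPM in XBP1-KO and 22.4, 22.7 and 20.9 CPM in WT, again without overlap (log2 fold change -0.35, adjusted p = 0.421). Rab6, which acts in transport within and back through the Golgi, was at 33.9 ± 2.83 CPM in XBP1-KO and 33.7 ± 5.56 CPM in WT (SD, n = 3 libraries each). The summed level of the group was 438, 423 and 437 CPM in XBP1-KO and 431, 472.5 and 437 CPM in WT.

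The endosomal group held 21 genes, of which 18 were tested and 0 were called. Rab5b had the smallest p-value of all Rab members. The 3 Rab5 proteins drive fusion of early endosomes. Rab5b had 93.4, 96.9 and 104 CPM in XBP1-KO and 135, 132 and 157 CPM in WT. The highest XBP1-KO library was below the lowest WT library. The means were 98.2 ± 5.51 CPM in XBP1-KO and 141 ± 13.7 CPM in WT (SD, n = 3 each), 69.5% of WT by the ratio of these means. The log2 fold change of -0.53 (SE 0.13, 95% interval -0.80 to -0.25) missed the threshold in edgeR, with an adjusted p of 0.0890, and passed it in DESeq2 with an adjusted p of 0.0239.

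Its paralogs Rab5a and Rab5c had log2 fold changes above 0, of 0.11 and 0.18, with adjusted p of 0.828 and 0.701 in edgeR. Rab5a had 26.5, 23.8 and 26.2 CPM in XBP1-KO and 29.5, 19.5 and 21.8 CPM in WT. Rab5c had 21.1, 20.4 and 19.7 CPM in XBP1-KO and 15.4, 16.7 and 21.7 CPM in WT. Both overlapped between the groups. Scaled per kb of transcript, Rab5b made up 57.2%, 59.9% and 60.9% of the sum of the Rab5 genes in XBP1-KO and 67.6%, 71.3% and 70.9% in WT. These shares were computed after the values of Rab5b had been seen and carry no test.

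**Figure D2:**
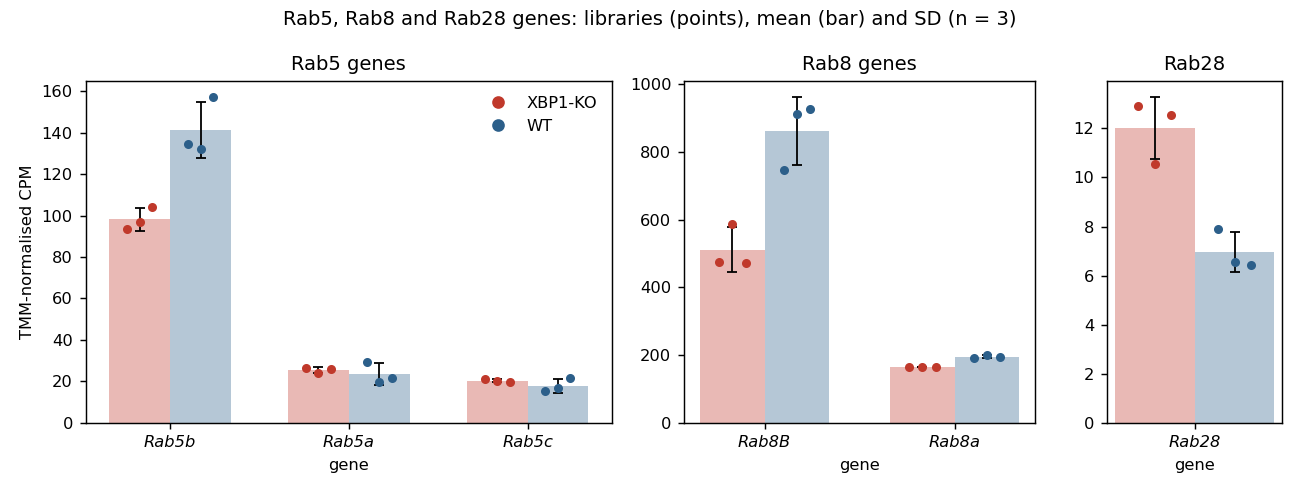
TMM-normalised CPM of the Rab5 genes, the Rab8 genes and Rab28 on linear axes from 0. Bars are group means, error bars the SD and points the 3 XBP1-KO and 3 WT libraries. Rab5b averaged 98.2 CPM in XBP1-KO and 141 CPM in WT, and Rab8B averaged 512 CPM in XBP1-KO and 862 CPM in WT.

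Rab7, which governs late endosomes and their fusion with lysosomes, had 158, 139 and 132 CPM in XBP1-KO and 135, 145 and 169 CPM in WT. The groups overlapped, with WT c above every XBP1-KO library and XBP1-KO c below every WT library. The log2 fold change was -0.07, with a 95% interval from -0.35 to 0.22 (edgeR, adjusted p = 0.866). Rab39, a late endosomal and phagosomal Rab, had 12.8, 18.4 and 12.9 CPM in XBP1-KO and 17.9, 28.1 and 19.0 CPM in WT. In both groups library b was the highest, and XBP1-KO b lay above WT a. Its log2 fold change was -0.56 (SE 0.22, adjusted p = 0.300).

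Rab11b and Rab11a return cargo from recycling endosomes to the surface, and Rab14 works between the Golgi and endosomes. Rab11b had 248, 220.0 and 225 CPM in XBP1-KO and 254, 218.5 and 260.4 CPM in WT. Rab14 had 186, 178 and 180.1 CPM in XBP1-KO and 196.5, 152 and 194 CPM in WT. Both overlapped, with log2 fold changes of -0.08 and 0.00 and adjusted p of 0.820 and 0.988. Rab11a averaged 45.5 ± 3.38 CPM in XBP1-KO and 37.5 ± 2.58 CPM in WT without overlap (SD, n = 3 each, edgeR adjusted p = 0.432). Rab4b, a Rab of fast recycling, averaged 52.7 CPM in XBP1-KO and 41.5 CPM in WT. Of its transcript windows 80.3% are shared with another annotated gene, so its counts are uncertain too.

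The remaining endosomal genes were low or close to equal. Rab21, Rab24 and Rab35 had log2 fold changes between 0.01 and 0.03. Rab15 had the highest log2 fold change of the 49 tested Rab genes, 1.60 (SE 0.93, adjusted p = 0.501), at 0.506 CPM in XBP1-KO and 0.165 CPM in WT, with 1 WT library at 0. Rab17, Rab25 and Rab9b, together with the secretory Rab26, did not pass the filter on low counts. Rab17 and Rab25 are known from epithelial cells, and their mean levels were between 0 and 0.0675 CPM in both groups.

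**Figure D3:**
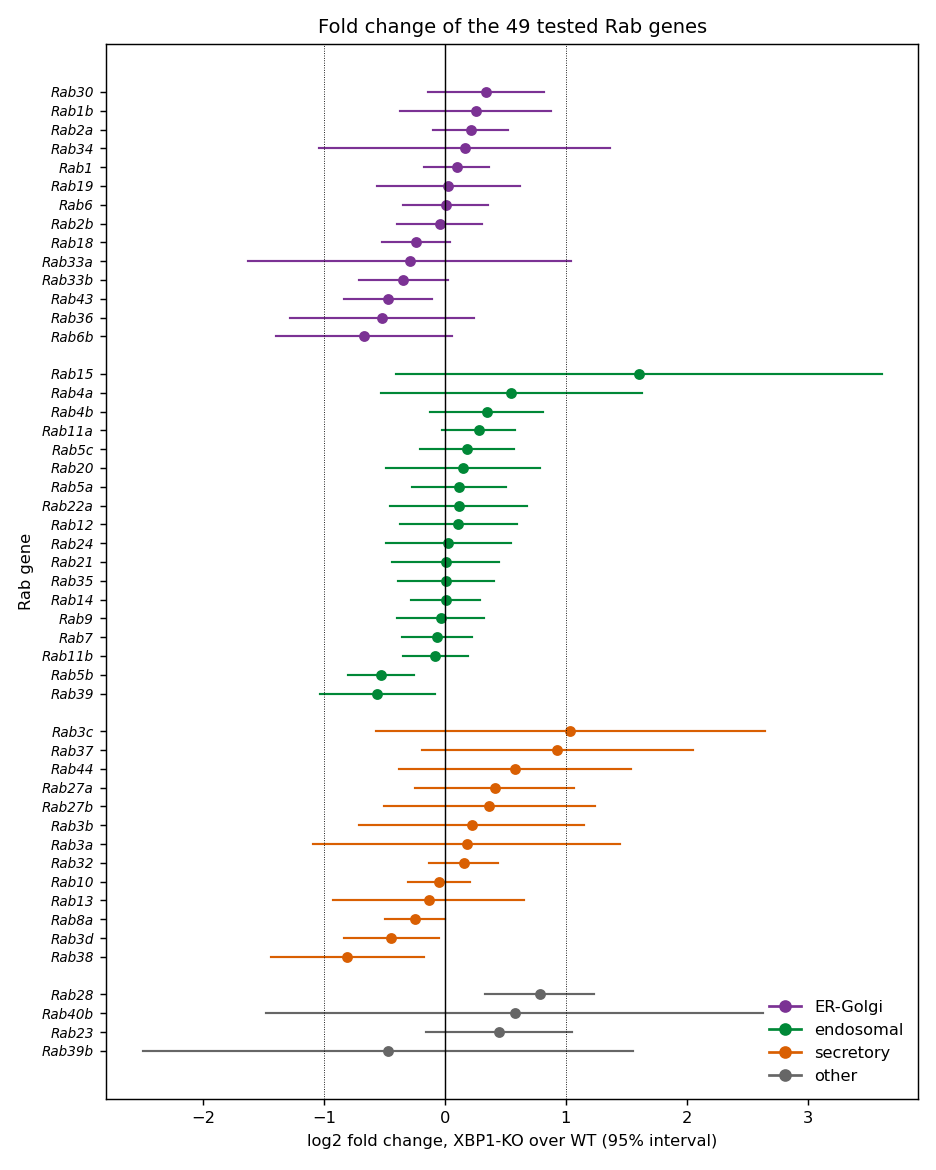
Log2 fold change of XBP1-KO over WT for the 49 tested Rab genes, with 95% intervals from the edgeR fit, colours for the role groups and dotted lines at 1 log2 unit on either side of 0. The interval of Rab5b runs from -0.80 to -0.25 and that of Rab28 from 0.33 to 1.24, and genes of low level such as Rab15 have the widest intervals.

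The secretory group held 14 genes, of which 13 were tested and 0 were called. Rab8a carries cargo from the Golgi to the plasma membrane. It had 165, 165.0 and 165 CPM in XBP1-KO and 191, 201 and 195 CPM in WT. All XBP1-KO values were below all WT values. This gave a log2 fold change of -0.25 (SE 0.11, edgeR adjusted p = 0.390). Rab10, which serves the same route, had means of 100.2 CPM in XBP1-KO and 104 CPM in WT (adjusted p = 0.894).

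Rab32 and Rab38 build lysosome-related organelles such as melanosomes. Rab32 had 145, 157 and 128 CPM in XBP1-KO and 114, 136 and 136 CPM in WT. Rab38 had 5.23, 4.15 and 3.58 CPM in XBP1-KO and 7.80, 4.96 and 9.89 CPM in WT. For Rab38 only WT b, the lowest WT library, fell within the XBP1-KO range. By edgeR the log2 fold change was 0.15 for Rab32 (SE 0.13, adjusted p = 0.654) and -0.81 for Rab38 (SE 0.29, adjusted p = 0.258). Rab38 had the lowest log2 fold change of the 49 tested Rab genes.

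Rab3d and Rab27a act in the docking of secretory granules. Rab3d had 50.2, 39.1 and 36.6 CPM in XBP1-KO and 47.6, 51.7 and 71.8 CPM in WT. XBP1-KO a lay above WT a, so the groups overlapped (log2 fold change -0.44, SE 0.18, adjusted p = 0.320). Rab27a had 18.2, 33.5 and 15.7 CPM in XBP1-KO and 13.7, 22.1 and 14.9 CPM in WT. Library b was the highest in both groups, and the log2 fold change of 0.41 (SE 0.30) had an adjusted p of 0.601. That fold change was -0.01 without XBP1-KO b and 0.62 without WT b.

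Rab27a is also used by cytotoxic lymphocytes, and the T and NK cell marker Nkg7 was at 69.4 CPM in XBP1-KO and 20.4 CPM in WT. Rab37 and Rab44, known from mast cells, averaged 2.52 and 5.02 CPM in XBP1-KO and 1.32 and 3.37 CPM in WT, both with overlap. The mast cell marker list had 5 of 6 tested members higher in XBP1-KO, 3 of them called. The other tested member was lower (log2 fold change -0.68), without overlap and at an unadjusted p under 0.05 in edgeR. Of the higher members, Cpa3 had 22.3 CPM in XBP1-KO and 9.68 CPM in WT. The summed level of the list was 136 to 188 CPM in XBP1-KO and 113 to 177 CPM in WT. The part of these cells in the levels of Rab27a, Rab37 and Rab44 was not tested.

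Of the 4 Rabs outside these routes, Rab28, a ciliary and photoreceptor Rab, had 12.9, 10.6 and 12.5 CPM in XBP1-KO and 7.91, 6.55 and 6.45 CPM in WT. Every XBP1-KO library was above every WT library. The means were 12.0 ± 1.27 CPM in XBP1-KO and 6.97 ± 0.818 CPM in WT (SD, n = 3 each). The log2 fold change of 0.78 (SE 0.21, 95% interval 0.33 to 1.24) had an adjusted p of 0.113 in edgeR and 0.0299 in DESeq2. Rab23, a negative regulator of Hedgehog signalling, had 5.34, 4.69 and 3.67 CPM in XBP1-KO and 3.07, 3.61 and 3.37 CPM in WT, also without overlap (adjusted p = 0.542). Rab40b, which joins a ubiquitin ligase through a SOCS box, had 0.622, 0.169 and 0.546 CPM in XBP1-KO and 0, 0.354 and 0.534 CPM in WT, and is too low to compare.

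Levels between genes were compared per kb of the longest protein-coding transcript in GENCODE vM21. By this scale Rab7, Rab32 and Rab14 were the highest members, at 66.3, 66.6 and 58.9 CPM per kb in XBP1-KO and 69.4, 59.9 and 58.7 CPM per kb in WT. Ranks are among the 53 members and leave out Rab rows of another spelling. Of those, Rab8b was at 108 CPM per kb in XBP1-KO and 182 in WT. Rab31, listed as Rab22B, was at 68.8 CPM per kb in XBP1-KO and 66.5 in WT. Rab5b had 30.9 CPM per kb in XBP1-KO and 44.5 CPM per kb in WT, which put it at rank 10 in XBP1-KO and rank 4 in WT. With the median transcript length in place of the longest, Rab14 and Rab11b took ranks 1 and 2 in WT, so the order among the highest genes depends on the transcript chosen.

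**Figure D4:**
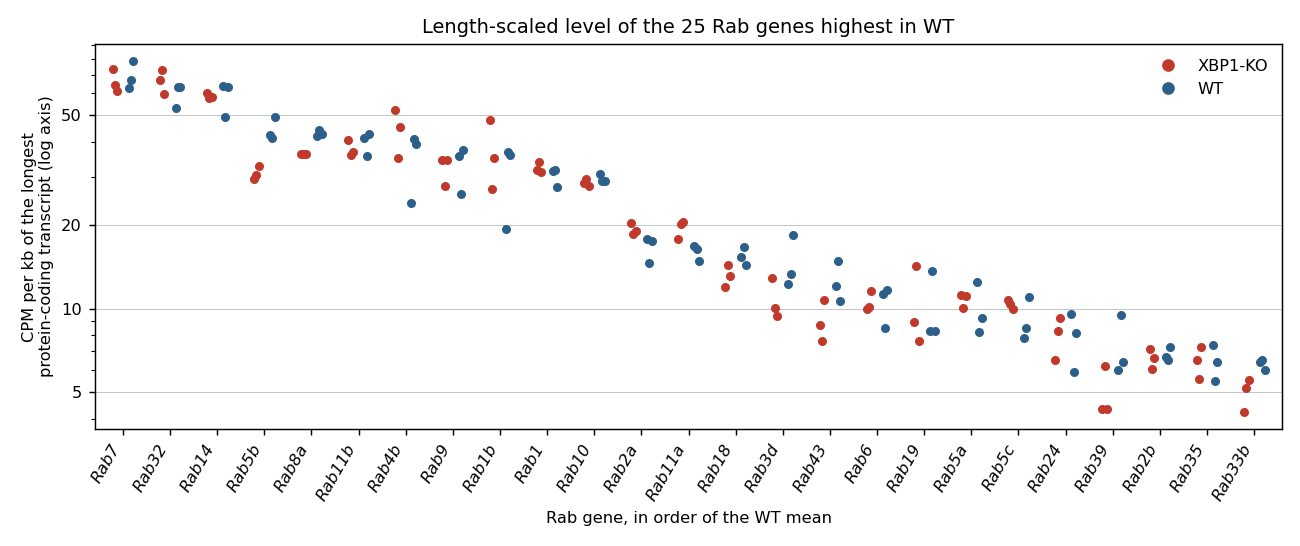
CPM per kb of the longest protein-coding transcript (log axis) for the 25 Rab members highest in WT. Points are the 3 XBP1-KO and 3 WT libraries. Rab7, Rab32 and Rab14 stand at the top, and the XBP1-KO points of Rab5b lie below its WT points.

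Summed over all 53 genes, the Rab level was 1869 ± 41.6 CPM in XBP1-KO and 1950 ± 68.2 CPM in WT (SD, n = 3 each). The libraries held 1917, 1849 and 1841 CPM in XBP1-KO and 1917, 1904 and 2028 CPM in WT, so the groups overlapped. Rab rows left out by their spelling are not in this sum, and a sum with them was not computed. Among them Rab8b alone had 476, 588 and 473 CPM in XBP1-KO and 747, 912.5 and 927 CPM in WT. Rab31, listed as Rab22B, averaged 239 CPM in XBP1-KO and 231 CPM in WT. The median log2 fold change was -0.02 in the ER and Golgi group, 0.07 in the endosomal group, 0.18 in the secretory group and 0.51 among the other 4 genes. The sign of the ER and Golgi median is not settled, since it was 0.04 when libraries were scaled by their upper quartile and 0.06 when scaled by their totals. That of the endosomal group was -0.12 without WT b and -0.01 without XBP1-KO c. Levels of Rab19 and Rab27a were higher in both b libraries than in the other 4, and those of 6 Rab genes were lower in both, beside 9.86% and 10.1% of all genes.

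The close relative Rab8b, listed as Rab8B, is described after its values were seen. Per kb of the longest transcript it was at 108 CPM in XBP1-KO and 182 CPM in WT, above every member on that scale. Its level by the median transcript length was not computed. Rab8b shares the Golgi to surface route with Rab8a. It had 476, 588 and 473 CPM in XBP1-KO and 747, 912.5 and 927 CPM in WT. The highest XBP1-KO library was well below the lowest WT library. Rab8b fell to 59.4% of WT (log2 fold change -0.75, SE 0.14, edgeR adjusted p = 0.0459). The call was not kept in 10 of 17 alternatives. Without WT a, WT b or WT c the adjusted p was 0.0513, 0.0887 and 0.253, and without XBP1-KO a or XBP1-KO c it was 0.181 and 0.167. It was 0.0279 without XBP1-KO b and 0.000604 in DESeq2.

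The other rows that the spelling left out were Rab22B (Rab31), Rab7l1 (Rab29), Rab40C (Rab40c) and Rab42-ps (Rab42). Rab31, which acts between the Golgi and endosomes, averaged 239 CPM in XBP1-KO and 231 CPM in WT (adjusted p = 0.887). Rab29, a Golgi and lysosome Rab, averaged 61.4 CPM in XBP1-KO and 61.0 CPM in WT. Both overlapped between the groups.

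Proteins that run the Rab cycle were taken from 6 lists of regulators and effectors, with 172 rows and 169 genes tested. None was called in edgeR, and DESeq2 called 8, against 3.17% of all genes it tested. At an unadjusted p under 0.05 there were 33 (19.5%), against 12.9% of all genes. Of these 30 were lower in XBP1-KO, beside 8.26% of all genes, and 3 were higher, beside 4.59%. Log2 fold changes were below 0 for 110 genes, beside 43.9% of all genes, and above 0 for 59, with a median of -0.13 beside 0.06 over all genes. Their summed level was 6065, 6196 and 5775 CPM in XBP1-KO and 6724, 7178 and 7242 CPM in WT, without overlap. The mean sum was 85.3% of WT. For the sum of all genes tested this share was 94.4%, which follows from the scaling factors of the libraries alone and is no measured background. The sum over the lists is weighted to abundant genes, since Gdi2 alone averaged 1110 CPM in XBP1-KO and 1349 CPM in WT. The median log2 fold change was -0.15 for prenylation and recycling proteins (6 of 8 lower), -0.10 for exchange factors (29 of 46), -0.12 for GTPase activators (23 of 34), -0.24 for Golgi effectors (17 of 23), -0.25 for endosomal effectors (24 of 33) and 0.07 for secretory effectors (11 of 25). The medians over transcript length were 2906 bases for the Rab genes, 2871 to 4499 bases for these lists and 3141 bases for all genes. Across all genes with a length the rank correlation of fold change and length was -0.20, and the part of length in the list medians was not tested.

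For 5 of the lists the gene with the smallest p-value is given here. Each was lower in XBP1-KO without overlap, missed the threshold in edgeR and passed it in DESeq2. Adjusted p in DESeq2 was 0.00475 for Mical1, 0.0114 for Tbc1d15, 0.0184 for Vps8, 0.0266 for Rin3 and 0.0496 for Uso1. These genes were picked by p-value from the same counts, so the lack of overlap and the DESeq2 calls are no separate support. Over the 6 lists, values did not overlap for 47 of 169 genes (27.8%), against 19.2% of all genes. Every XBP1-KO value was below every WT value for 37 of the 169, beside 10.4% of all genes. With no filter on low counts edgeR called 4 genes of the lists, which were Mical1, Tbc1d15, Vps8 and Exoc2. That setting called 252 of 23225 genes, against 71 of 15958 in the main fit. Tbc1d15, a GTPase activator for Rab7, had 100.5, 97.8 and 97.5 CPM in XBP1-KO and 137, 145 and 141 CPM in WT (log2 fold change -0.52, adjusted p = 0.0751). Mical1, an effector that disassembles actin, had 30.3, 21.8 and 28.8 CPM in XBP1-KO and 47.6, 52.6 and 38.1 CPM in WT (-0.77, adjusted p = 0.0770). Vps8, a subunit of the CORVET tether that binds Rab5, had 22.5, 28.2 and 18.1 CPM in XBP1-KO and 34.6, 46.4 and 34.0 CPM in WT (-0.74, adjusted p = 0.106). In all 3 genes the XBP1-KO libraries lay below the WT libraries. Rin3, an exchange factor for Rab5 proteins, averaged 61.7 ± 11.9 CPM in XBP1-KO and 100.3 ± 22.1 CPM in WT (SD, n = 3 each, edgeR adjusted p = 0.128). Uso1, the Golgi tether that binds Rab1, averaged 43.8 ± 4.15 CPM in XBP1-KO and 61.4 ± 2.50 CPM in WT (SD, n = 3 each, edgeR adjusted p = 0.128).

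**Figure D5:**
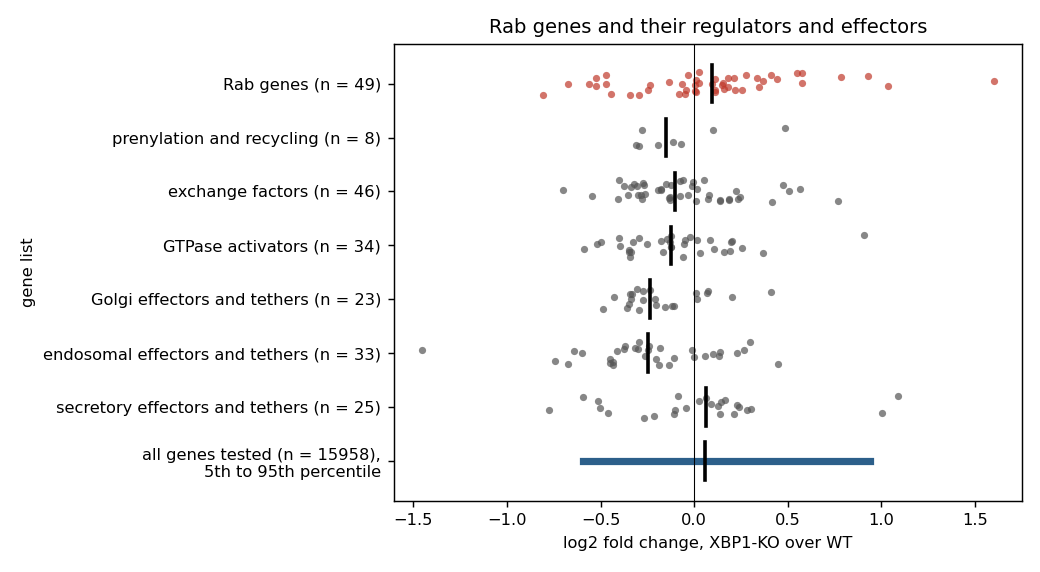
Log2 fold changes of XBP1-KO over WT for the 49 tested Rab genes and for the 6 lists of regulators and effectors. Points are genes, black bars the medians, and the blue bar runs from the 5th to the 95th percentile of all genes. The median is 0.10 for the Rab genes and lies between -0.25 and -0.10 for every list but the secretory effectors, where it is 0.07.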

How the data were processed

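RNA of 3 XBP1-KO and 3 WT samples was sequenced. The authors deposited whole-number counts for 23225 gene symbols and CPM values for 13946 genes. The deposited CPM equalled counts over library totals, with a largest difference of 5.1e-11. RSEM, edgeR and mm9 are named, without version or role, per the submitters' processing notes. No source used here gives the aligner, the strand setting or how RSEM estimates became whole numbers. Columns carry no replicate number, so libraries are called a, b and c in column order, which pairs nothing.

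Counts were filtered by filterByExpr (15958 genes tested), scaled by TMM and fitted with genotype as the only term by glmQLFit with robust estimation in edgeR 4.0.16 (R 4.3.3). Tests were two-sided with Benjamini-Hochberg adjustment over all tested genes and a threshold of 0.05. CPM in the text is TMM-normalised. The script was tested on simulated counts. Alternatives were other scalings and filters, no robust estimation, DESeq2 1.42.0, limma-voom (limma 3.58.1), limma on log2(deposited CPM + 1 or 0.1), each library left out, and both b libraries left out. The common biological coefficient of variation was 0.25, and libraries held 26946349 to 32709100 counts.

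Members and lists were chosen with earlier results of these data known. Named genes are Rab1, Rab7, Rab27a and Rab32, every called Rab, the 3 highest and the 2 with the smallest p of each role group, and the gene with the smallest p of each regulator list where none was called. The gene this names in 1 list is not reported here. Other genes are given to account for members. Lengths are from GENCODE vM21 (GRCm38, used only for lengths and shared sequence) and promoters from RefSeq.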

Additional observations from a re-analysis of the deposited data

How the results depend on the processing

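No paired analysis was possible because the columns of the table carry no replicate number. Over 17 alternatives the count of called Rab members was 0 except with DESeq2, where it was 2. The count over all genes, 71, was 25 with library size alone, 252 with no filter, 45 without robust estimation, 465 with DESeq2, 47 with limma-voom, 25 and 13 on deposited CPM with a pseudocount of 1 and 0.1, and 5 to 154 when each library was left out. Called regulators and effectors numbered 4 with no filter, 8 with DESeq2, and 0 to 1 when each library was left out. The median log2 fold change of the Rab genes, 0.10, was 0.17 with library size alone, -0.0056 without both b libraries, and -0.0837 to 0.0803 when each library was left out, so its sign is not settled. The cause of these differences was not tested. The adjusted p of Rab5b lay between 0.0239 and 0.382, and that of Rab28 between 0.0299 and 0.413. Leave-one-out fits leave a genotype with 2 libraries. Intervals were widest for genes of low level, such as Rab15, Rab40b and Rab39b.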
